A study of Rattus norvegicus with 18 samples.

Results

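The genes described here build the barrier of a stratified epithelium: proteins of the cornified envelope, the transglutaminases that join them, desmosomes, claudins, and the proteases, inhibitors and lipid enzymes of shedding and sealing. The list holds 45 rat genes of known function, drawn up with earlier results of these data known, and 33 of them were found on the array, 32 by their symbol and loricrin (Lor) through a RefSeq synonym. The other 12, Flg, Dsg3, Dsc3, Casp14, Alox12b, Abca12, Klk7, Csta, Elovl4, Cers3, Rptn and Crnn, were matched to no probe set and were not analysed here. On the array were 12 genes of the cornified envelope of 15 listed, both transglutaminases, 8 desmosome genes of 10, 4 proteases and inhibitors of 7, 1 barrier lipid enzyme of 5, all 3 claudins and 3 other keratinocyte proteins. Each gene is given by 1 probe set, the one with the highest mean log2 signal over the 18 samples, out of 31042 probe sets tested.

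Male Sprague Dawley rats of the lesion groups drank water with 0.002% 4-nitroquinoline-1-oxide (4NQO), a carcinogen that causes dysplasia and squamous cell carcinoma (SCC) of the tongue, and were sacrificed with visible lesions between weeks 14 and 22. Rats of the normal groups drank distilled water alone. The 6 groups, with 3 arrays each, were normal, dysplasia and SCC epithelia, and normal, dysplasia and SCC fibroblasts of the submucosa beneath. Per the study's methods, each sample pooled tissue of 3 rats, epithelium was lifted off with dispase, and fibroblasts were digested out with collagenase and kept by their quick adherence to plastic. The methods do not say if the 3 pools of a group shared rats. Both layers came from the digested specimens, and it is likewise not stated if epithelial and fibroblast pools of a stage shared rats. The p-values therefore reflect the variation among such pools, part of which may be technical, and 3 arrays a group limit the precision.

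In a stratified epithelium, cells leave the basal layer, move upward and end as flattened sheets. On the way they lay down a cornified envelope under the plasma membrane, in which transglutaminases join involucrin, loricrin, small proline-rich proteins and plakins into an insoluble shell. Desmosomes hold the cells together until kallikrein proteases cut them, and claudins seal the space between cells. The dorsal tongue of a rat is keratinized and expresses this programme strongly.

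Members of the envelope group moved in both directions, and several of these genes lie side by side in the genome. In the order of protein-coding genes in the RefSeq table of the rat assembly GRCr8, 6 members (Lor, Sprr2d, Sprr1b, Sprr3, Sprr1a and Ivl) fell within a run of 20 neighbouring genes on chromosome 2, and Anxa9 lay on the same chromosome with 106 genes between it and Ivl. The 250 bases before the RefSeq start are shown for 2 genes that were higher in lesions (Sprr1b and Sprr2d), for Sprr1a, which stayed near the top of the scale, and for 2 that were lower (Ivl and Anxa9). All 5 lie on the minus strand and run 5′ to 3′ toward the gene, with matches to the AP-1 motif TGANTCA, which is its own reverse complement, in capitals.
Sprr1b, chr2:180706356-180706605: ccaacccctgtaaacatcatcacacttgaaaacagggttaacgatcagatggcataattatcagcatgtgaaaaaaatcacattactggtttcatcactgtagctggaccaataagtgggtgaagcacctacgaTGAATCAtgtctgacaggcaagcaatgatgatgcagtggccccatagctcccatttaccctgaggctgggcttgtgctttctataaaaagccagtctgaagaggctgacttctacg
Sprr2d, chr2:180566283-180566532: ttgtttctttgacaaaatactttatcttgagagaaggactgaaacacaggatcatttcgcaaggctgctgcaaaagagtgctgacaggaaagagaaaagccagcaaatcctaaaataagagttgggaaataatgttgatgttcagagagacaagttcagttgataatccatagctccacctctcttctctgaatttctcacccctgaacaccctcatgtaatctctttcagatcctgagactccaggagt
Sprr1a, chr2:180752626-180752875: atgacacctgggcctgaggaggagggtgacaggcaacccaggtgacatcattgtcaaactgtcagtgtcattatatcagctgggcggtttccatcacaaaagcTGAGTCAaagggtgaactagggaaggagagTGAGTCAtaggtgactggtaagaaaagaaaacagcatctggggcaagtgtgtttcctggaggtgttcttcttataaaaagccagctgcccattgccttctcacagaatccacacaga
Ivl, chr2:180846579-180846828: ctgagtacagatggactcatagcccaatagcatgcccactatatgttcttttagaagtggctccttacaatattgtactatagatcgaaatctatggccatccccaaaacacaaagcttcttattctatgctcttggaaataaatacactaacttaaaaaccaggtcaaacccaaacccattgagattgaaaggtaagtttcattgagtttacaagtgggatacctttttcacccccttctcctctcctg
Anxa9, chr2:185572561-185572810: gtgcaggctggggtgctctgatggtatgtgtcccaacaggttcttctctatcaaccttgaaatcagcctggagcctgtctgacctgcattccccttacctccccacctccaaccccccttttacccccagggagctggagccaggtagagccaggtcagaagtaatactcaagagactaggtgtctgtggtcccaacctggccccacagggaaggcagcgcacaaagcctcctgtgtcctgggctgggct

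Sprr1b held 1 match, which ended 110 bases before the start, and Sprr1a held 2, the nearer of them 111 bases before it. The windows of Sprr2d, Ivl and Anxa9 held none. A window was found for 28 of the 33 members. With 1 window per gene, TGANTCA occurred in 7 of 28 (Krtdap, Lor, Perp, Scel, Sfn, Sprr1a and Sprr1b), against 6.4% of 27457 windows of all genes, and a second window of Sbsn held it too. The TATA box letters TATAAA, searched on both strands, occurred in 6 of 28 members (Krtdap, Lor, Spink5, Sprr1a, Sprr1b and Tgm3), against 13.1% of all windows. A match is a description of the letters and not of binding.

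In epithelia these genes were among the brightest on the array. The deposited values are linear probe set signals, with array medians of 92.5 to 116, and all levels and changes below are on the log2 scale. Of the 33 members, 21, 20 and 20 lay above the 99th percentile of all probe sets in normal, dysplasia and SCC epithelia. That percentile was 12.72, 12.63 and 12.60, and the median of the members was 13.27, 13.13 and 13.14. Sprr1a, a small proline-rich envelope protein, had 14.21, 14.26 and 14.18 in normal epithelia, 14.19, 14.22 and 14.18 in dysplasia epithelia, and 14.21, 14.24 and 14.24 in SCC epithelia. These values lie close to the brightest probe set of each group, whose mean was 14.27, 14.37 and 14.35. How far the top of the scale narrows the changes of such bright genes was not tested. The weakest members were Cldn7, a claudin, at means of 5.78, 5.75 and 5.91 in normal, dysplasia and SCC epithelia, and Ivl, involucrin.

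**Figure D1:**
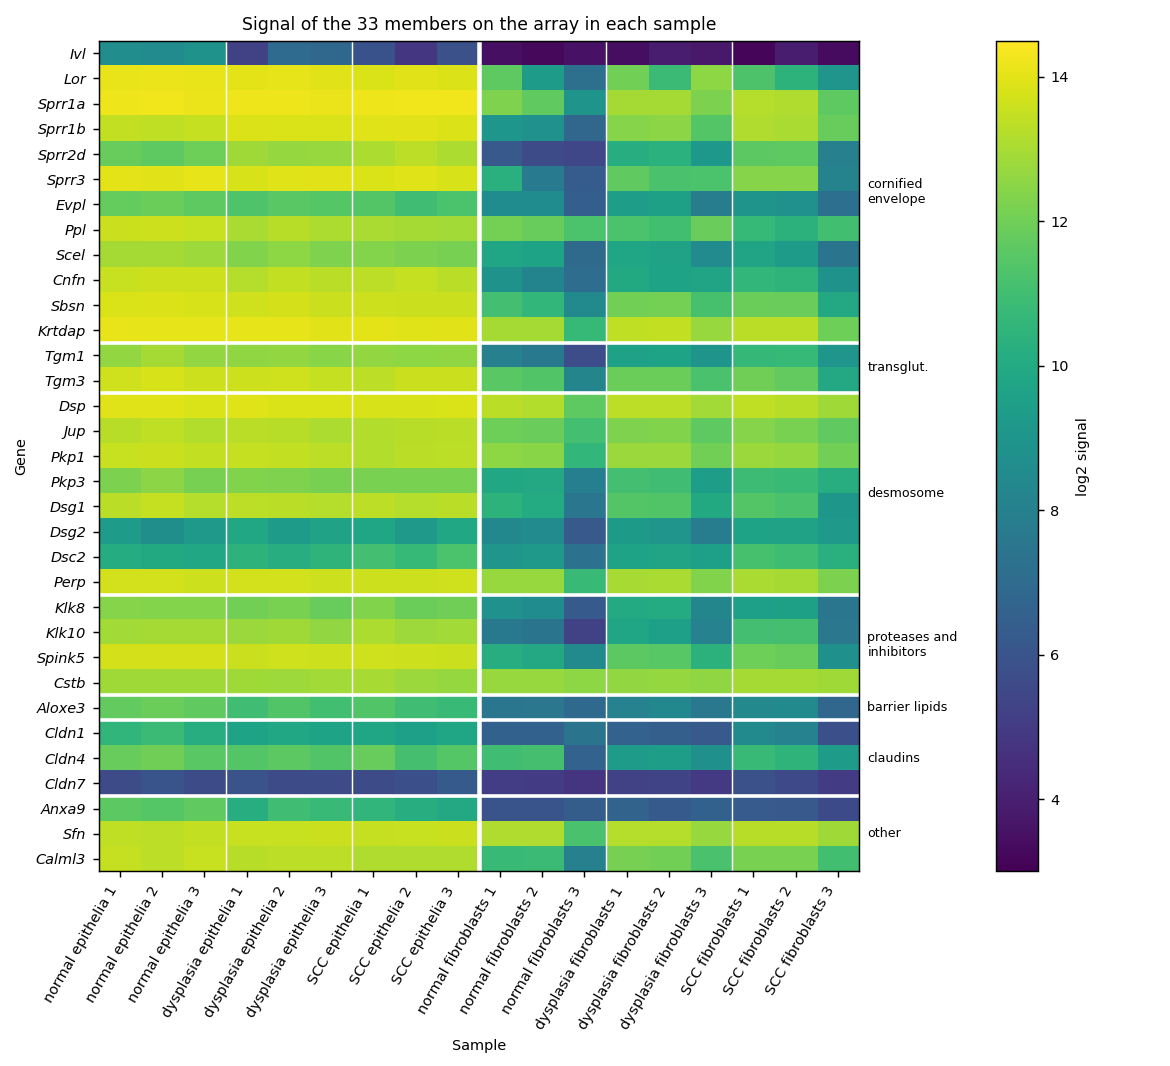
Log2 signal of the 33 members (rows, grouped by role) in each of the 18 samples (columns, in the order of stages, epithelia then fibroblasts), from dark (low) to yellow (high). The epithelia are nearly uniform apart from Ivl, Anxa9 and Sprr2d, and in the fibroblasts the third sample of each stage is darker for most genes.

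The samples labelled fibroblasts carried keratinocyte transcripts. The study checked the purity of both cell types by staining for E-cadherin, keratins and vimentin, which was not analysed here. Col1a2, a collagen gene of fibroblasts, stood between 12.84 and 14.15 in all 9 fibroblast samples, and Krt14, a keratin of basal keratinocytes, stood between 12.88 and 14.13 in the same samples, against 14.09 to 14.32 in epithelia. The mean of 9 basal epithelial markers was 11.57, 11.67 and 10.11 in normal fibroblasts, 12.06, 12.06 and 11.59 in dysplasia fibroblasts, and 12.06, 12.01 and 11.94 in SCC fibroblasts, against 11.29 to 12.11 in epithelia. For 12 suprabasal and general epithelial markers it was 9.93, 9.87 and 8.07 in normal fibroblasts, 11.04, 11.09 and 9.97 in dysplasia fibroblasts, and 11.14, 10.98 and 9.90 in SCC fibroblasts. The third sample of each stage was the lowest of its stage on both lists. In the other direction, the mean of 19 fibroblast markers was 6.45, 7.90 and 6.41 in normal epithelia, 7.96, 7.05 and 7.04 in dysplasia epithelia, and 9.53, 11.39 and 7.53 in SCC epithelia. Macrophage markers, 16 genes, stood at 8.46, 9.46 and 7.20 in SCC epithelia, against 5.89 to 6.13 in normal epithelia. They stood at 11.40, 11.05 and 8.94 in normal fibroblasts, 8.89, 8.80 and 10.60 in dysplasia fibroblasts, and 10.04, 10.06 and 11.53 in SCC fibroblasts. Endothelial markers, 11 genes, had means of 10.6, 10.3 and 10.6 in normal, dysplasia and SCC fibroblasts. In epithelia of the same stages their means were 6.0, 6.2 and 7.5. In bulk samples, fewer cells of a type and less RNA per cell cannot be told apart.

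**Figure D2:**
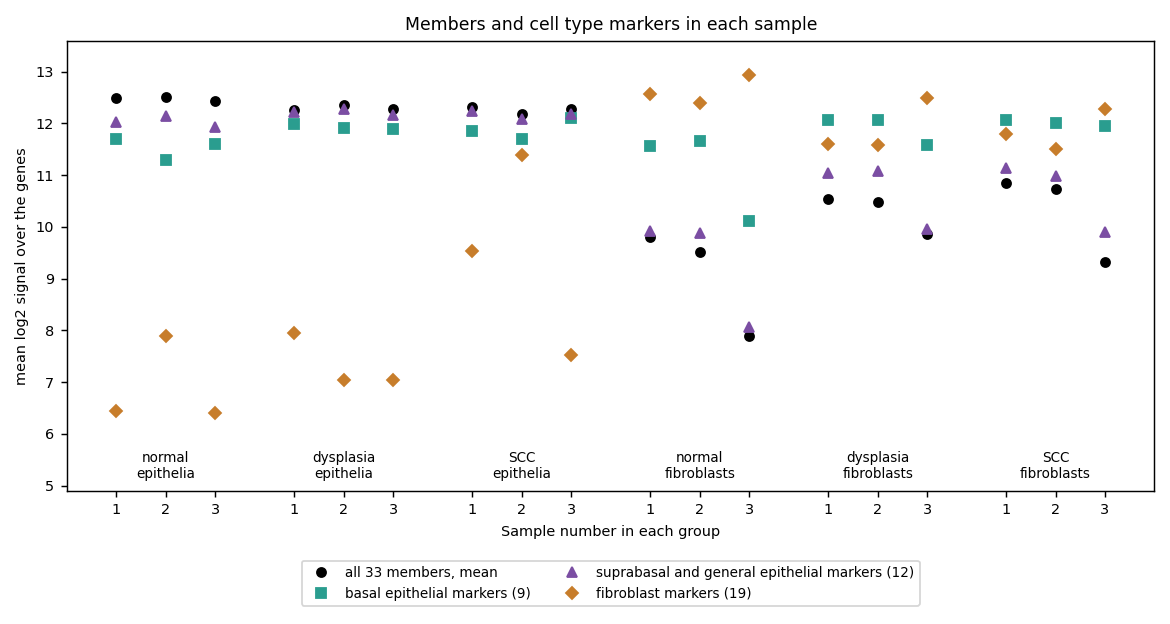
Mean log2 signal of the 33 members and of 3 marker lists in each sample, numbered 1 to 3 within its group, with 1 point per sample and list. In fibroblasts the mean of the members runs close to the suprabasal and general epithelial markers and is lowest in the third sample of each stage, at 7.88, 9.86 and 9.33.

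Dysplasia epithelia differed from normal epithelia in 8 of the 33 members: involucrin, 2 other envelope genes, a lipid enzyme, a claudin and an annexin were lower, and 2 small proline-rich genes were higher. The 2 higher members stand beside 7.0% of all probe sets called higher, and the 6 lower members beside 7.54% called lower, at an adjusted p under 0.05 from limma over all probe sets. SCC epithelia differed from normal epithelia in 11 members, 3 higher and 8 lower, beside 12.6% and 17.3% of all probe sets. The median change of the members was -0.11 in dysplasia and -0.16 in SCC, against -0.06 and -0.09 for all probe sets. Each change of stage shares the same normal arrays, so the 2 sets of calls are not independent.

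Ivl encodes involucrin, a scaffold laid down early in the cornified envelope. Its signal was 8.62, 8.53 and 8.85 in normal epithelia, 5.23, 7.03 and 6.89 in dysplasia epithelia, and 5.88, 4.83 and 5.84 in SCC epithelia. No dysplasia or SCC sample reached the normal range. The change was -2.28 (SE 0.46, adjusted p = 0.0151, limma) in dysplasia and -3.15 (SE 0.46, adjusted p = 0.00176) in SCC, which is 4.86-fold and 8.86-fold lower. Without normal epithelia 3 the dysplasia call was lost (adjusted p = 0.0504), while the SCC call held without each single array and under each alternative setting run.

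Sprr1b and Sprr2d, small proline-rich proteins that bridge other envelope proteins, moved the opposite way. Sprr1b had 13.45, 13.39 and 13.47 in normal epithelia, 13.88, 13.84 and 13.83 in dysplasia epithelia, and 13.93, 13.97 and 13.92 in SCC epithelia. The stages differed little in size but did not overlap between normal and either lesion (0.41 in dysplasia, SE 0.09, adjusted p = 0.0184, and 0.50 in SCC, SE 0.09, adjusted p = 0.00394, limma). Sprr2d had 11.84, 11.64 and 11.97 in normal epithelia, 12.88, 12.69 and 12.74 in dysplasia epithelia, and 13.09, 13.36 and 13.10 in SCC epithelia. It rose by 0.95 in dysplasia (SE 0.13, adjusted p = 0.00395) and by 1.37 in SCC (SE 0.13, adjusted p = 0.000269), and both calls held without each single array. The Sprr2 genes are close relatives, and whether the probes of Sprr2d tell them apart was not tested. Of the remaining members of the Sprr family, Sprr3 changed by -0.11 and -0.16 and Sprr1a by -0.02 and 0.01 in dysplasia and SCC, and neither passed.

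Periplakin (Ppl) and envoplakin (Evpl), plakins that anchor the envelope to keratin filaments and desmosomes, and sciellin (Scel), a precursor of the envelope, were lower in SCC. Ppl had 13.59, 13.63 and 13.53 in normal epithelia, 13.04, 13.25 and 13.09 in dysplasia epithelia, and 13.02, 12.95 and 12.93 in SCC epithelia. Evpl had 11.78, 11.91 and 11.65 in normal epithelia, 11.34, 11.57 and 11.46 in dysplasia epithelia, and 11.44, 10.98 and 11.25 in SCC epithelia. For both genes every SCC sample lay under the lowest normal one. Scel had 12.96, 12.95 and 12.82 in normal epithelia, 12.31, 12.55 and 12.28 in dysplasia epithelia, and 12.35, 12.23 and 12.14 in SCC epithelia. Ppl fell by 0.45 in dysplasia (SE 0.10, adjusted p = 0.0197, limma) and by 0.61 in SCC (SE 0.10, adjusted p = 0.00262). Scel fell by 0.53 (SE 0.12, adjusted p = 0.0197) and by 0.67 (SE 0.12, adjusted p = 0.0035). Evpl passed in SCC with -0.56 (SE 0.14, adjusted p = 0.0178), a call lost without normal epithelia 1 or 2 or SCC epithelia 2 (adjusted p up to 0.06). The other envelope genes, Lor, Cnfn, Sbsn and Krtdap, changed by -0.26 to -0.05 in the lesions, and none passed.

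Of the 8 desmosome genes, 1 passed in SCC epithelia and none in dysplasia epithelia. Plaque proteins and cadherins, Dsp, Jup, Pkp1, Pkp3 and Dsg1, and the junction protein Perp changed by -0.22 to -0.01 in dysplasia and SCC epithelia, and none passed. The gene that passed was desmocollin 2 (Dsc2), a desmosomal cadherin found in many epithelia, with 10.14, 9.97 and 9.87 in normal epithelia, 10.46, 10.16 and 10.46 in dysplasia epithelia, and 11.08, 10.71 and 11.26 in SCC epithelia. Normal samples lay below all SCC samples, while the highest of them, at 10.14, lay just under the lowest dysplasia sample, at 10.16. The SCC change of 1.03 (SE 0.16, adjusted p = 0.00244, limma) passed under each alternative setting and without each single array, and the dysplasia change of 0.37 did not pass (adjusted p = 0.162). Its partner cadherin Dsg2 stood 0.51 higher in both lesions and did not pass (adjusted p = 0.125 in SCC).

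Transglutaminases and proteases showed no call in epithelia. Tgm1 and Tgm3, which join the envelope proteins, changed by -0.19 to -0.11. The kallikreins Klk8 and Klk10, the kallikrein inhibitor Spink5 and the cathepsin inhibitor Cstb changed by -0.35 to -0.01.

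Aloxe3, a lipoxygenase of barrier lipid synthesis, was the only member of the lipid group on the array. It had 11.75, 11.94 and 11.68 in normal epithelia, 10.98, 11.39 and 11.01 in dysplasia epithelia, and 11.36, 10.96 and 10.80 in SCC epithelia. It fell by 0.66 in dysplasia (SE 0.17, adjusted p = 0.0368, limma) and by 0.75 in SCC (SE 0.17, adjusted p = 0.0127). The dysplasia call was lost under 6 of 8 alternative settings and without any of 5 single arrays (adjusted p up to 0.131, limma). The SCC call held without each single array and was lost under 2 of 8 settings. Of the claudins, the tight junction strand proteins, Cldn1 fell and Cldn4 and Cldn7 did not pass. Cldn1 had 10.55, 10.84 and 10.16 in normal epithelia, 9.66, 9.87 and 9.66 in dysplasia epithelia, and 9.83, 9.51 and 9.77 in SCC epithelia. Its change was -0.79 in dysplasia (SE 0.18, adjusted p = 0.0215) and -0.81 in SCC (SE 0.18, adjusted p = 0.00964). Of the remaining probe sets of Cldn1, 1 passed in both lesions with -0.78 and -0.75, and 1 did not, with -0.73 and -0.64 (adjusted p = 0.106 each).

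Anxa9, an annexin expressed in keratinocytes, had 11.60, 11.48 and 11.68 in normal epithelia, 10.16, 10.96 and 10.76 in dysplasia epithelia, and 10.58, 10.16 and 9.93 in SCC epithelia. The normal samples stood above all lesion samples. The change was -0.96 in dysplasia (SE 0.22, adjusted p = 0.025, limma) and -1.36 in SCC (SE 0.22, adjusted p = 0.00283). A dimmer probe set of Anxa9 passed in SCC with -1.09 and not in dysplasia with -0.63 (adjusted p = 0.238). Calml3, a calmodulin-like protein of epithelia, had 13.50, 13.36 and 13.51 in normal epithelia and 13.27, 13.35 and 13.35 in dysplasia epithelia. In SCC epithelia it had 13.15, 13.15 and 13.14, a fall of 0.31 (SE 0.09, adjusted p = 0.0357), and this call was lost without any of 6 single arrays (adjusted p up to 0.11). Stratifin (Sfn), a 14-3-3 protein of keratinocytes, stood 0.16 and 0.13 higher in dysplasia and SCC and did not pass.

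**Figure D3:**
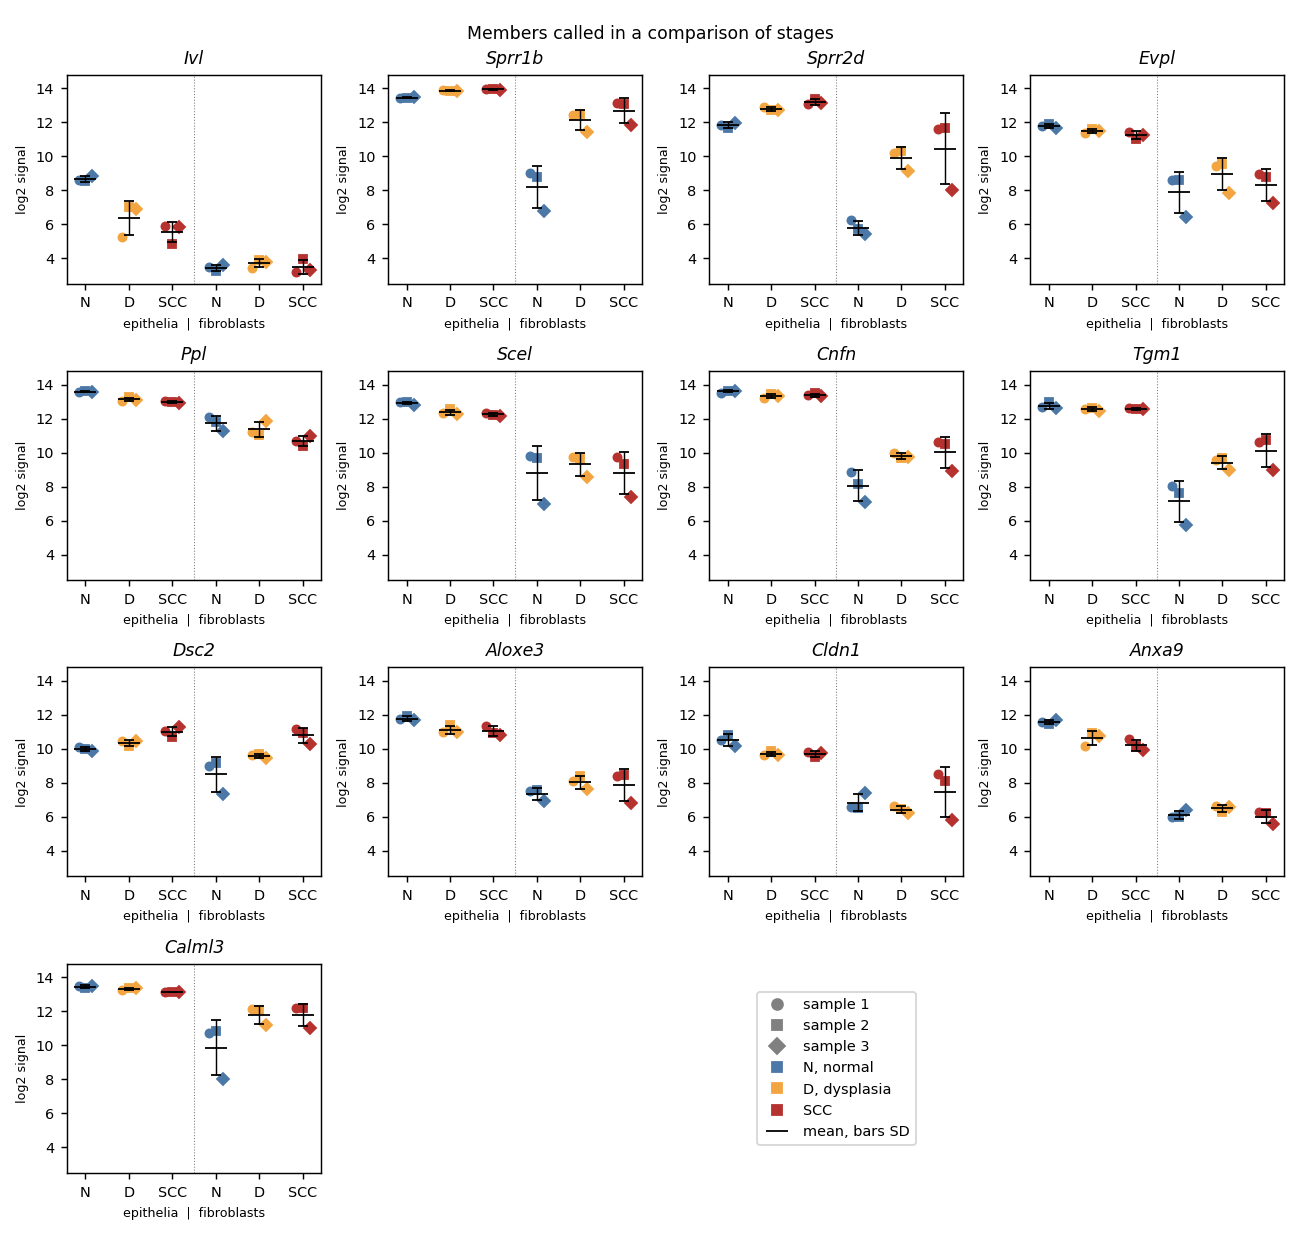
Log2 signal of the 13 members called in any comparison of stages, with epithelia on the left and fibroblasts on the right of each panel, 1 symbol per sample, black lines for the mean and bars for the SD (n = 3). Ivl and Anxa9 fall in epithelia and stay low in fibroblasts, while Sprr1b and Sprr2d lie further apart between stages in fibroblasts than in epithelia.

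The epithelial calls at the dysplasia stage rested on few arrays. Without normal epithelia 1, 2 or 3 or dysplasia epithelia 1 or 3, the number of called members was 2, 2, 3, 3 and 2 in place of 8, and Sprr2d was the member whose call held each time. In a single fit of all 18 arrays, which shares the wider spread of the fibroblasts, 2 members passed in dysplasia (Ivl and Anxa9) and 3 in SCC (Ivl, Anxa9 and Dsc2). With signals set to equal spike-in controls, 2 higher (Sprr1b and Sprr2d) and 2 lower members (Ivl and Anxa9) passed in dysplasia. That alignment turned the median of the members in dysplasia to 0.04 and that of all probe sets to 0.09. It called 2931 of all probe sets, with 69.6% of them higher, against 4516 and 48.1% as deposited. Of 9 basal epithelial markers, 2 were higher in dysplasia (median 0.33) and 3 in SCC (median 0.18) than in normal epithelia, and none was lower. Among 12 suprabasal and general epithelial markers, 1 was higher and none lower in dysplasia (median -0.04). In SCC 3 of these 12 were higher and 3 lower (median -0.13). Markers of other cell types also differed between the stages. In dysplasia over normal epithelia, 4 of 16 macrophage markers were higher (median 0.93), and 2 of 9 neutrophil markers were higher and 1 lower (median -0.12). In SCC over normal epithelia, 6 of 19 fibroblast markers (median 2.58), 11 of 16 macrophage markers (median 2.74), 2 of 11 endothelial markers (median 1.43) and 3 of 9 neutrophil markers (median 0.10, with 1 lower) were higher. In SCC epithelia 3 the fibroblast markers lay within the range of dysplasia epithelia. Its macrophage markers, at 7.20, lay above those of normal epithelia, at 5.89 to 6.13. The mean of all 33 members was 12.325, 12.191 and 12.275 in SCC epithelia 1, 2 and 3. Without SCC epithelia 2, which had the highest fibroblast markers, 4 members were called higher and 6 lower. The part of other cell types, or of basal and suprabasal cells, in the epithelial calls was not tested. The values of single samples rest on 1 array each.

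SCC and dysplasia epithelia were not told apart by any member. limma called 0 of 33, beside 0.0258% of all probe sets, and Sprr2d (0.42, SE 0.13) and Dsc2 (0.66, SE 0.16) were the 2 members with an unadjusted p under 0.05 (adjusted p = 0.23 and 0.167). Of all probe sets, 4402 had an unadjusted p under 0.05, and the methods' t-test with the same adjustment also called 0 members. Ivl stood at -0.87 between SCC and dysplasia, with overlapping samples (SE 0.46, adjusted p = 0.432).

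**Figure D4:**
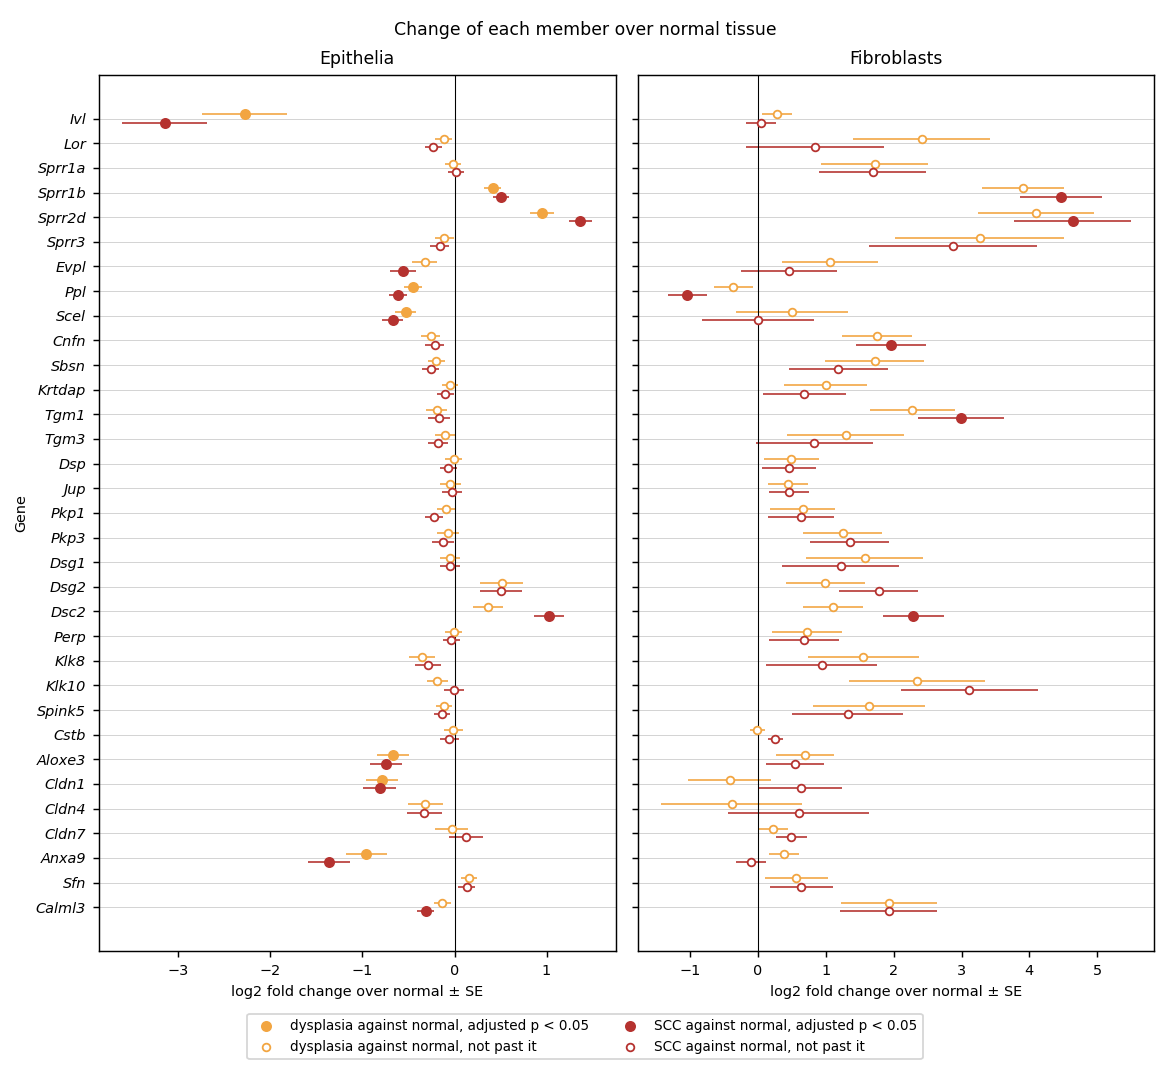
Log2 fold change over normal (points) with its standard error (bars) of each member in dysplasia and SCC, for epithelia (left) and fibroblasts (right, with a wider axis). Filled points passed an adjusted p under 0.05. In epithelia most members lie close to 0, and in fibroblasts 29 of 33 in dysplasia and 31 of 33 in SCC lie above it with long bars.

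In fibroblasts the barrier genes were weaker than in epithelia and differed strongly between samples. In SCC fibroblasts 5 members were higher than in normal fibroblasts (Sprr2d, Sprr1b, Tgm1, Dsc2 and Cnfn), beside 7.82% of all probe sets, and 1 was lower (Ppl), beside 7.43%. The median change of the members was 0.83 in SCC and 1.07 in dysplasia fibroblasts over normal ones, against -0.05 and -0.04 for all probe sets. Over the same comparisons the median change was 0.96 and 0.84 for the 12 suprabasal and general epithelial markers and 0.76 and 0.73 for the 9 basal markers. The 3′ over 5′ signal of the actin control probes, a measure of RNA length, was 1.14 to 1.26 on the log2 scale in SCC fibroblasts, against 1.51 to 2.02 in normal fibroblasts. Neutrophil markers were higher for 8 of 9 genes in SCC over normal fibroblasts (median 1.90), and for none in dysplasia over normal fibroblasts (median 0.87). Their mean was 9.33, 9.33 and 9.04 in SCC fibroblasts, against 7.28, 7.04 and 7.18 in normal fibroblasts. Fibroblast markers were lower for 3 of 19 genes in SCC (median -0.64) and for none in dysplasia (median -0.74). The part of any of these in the change of the members was not tested.

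Sprr1b had 9.03, 8.80 and 6.79 in normal fibroblasts, 12.43, 12.48 and 11.43 in dysplasia fibroblasts, and 13.14, 13.04 and 11.83 in SCC fibroblasts. The highest normal sample lay below the lowest lesion sample. The change in SCC was 4.46 (SE 0.61, 22.1-fold, adjusted p = 0.00409, limma), and the call held without each single array. In dysplasia it was 3.91 (SE 0.61) and just missed the threshold (adjusted p = 0.0532). Sprr2d had 6.23, 5.69 and 5.45 in normal fibroblasts, 10.19, 10.33 and 9.14 in dysplasia fibroblasts, and 11.61, 11.65 and 8.01 in SCC fibroblasts. Here too the normal samples lay apart from all lesion samples. It rose by 4.64 in SCC (SE 0.86, adjusted p = 0.0127), and without SCC fibroblasts 1 or 2 the call was lost (adjusted p = 0.056 and 0.0554). The dysplasia value of 4.10 (SE 0.86) did not pass (adjusted p = 0.107). In normal fibroblasts Sprr2d lay at the percentile 32.1 of all probe sets, and whether it stood above background there was not tested, so no linear fold is given.

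Tgm1, the membrane-bound transglutaminase of keratinocytes, had 8.02, 7.63 and 5.72 in normal fibroblasts, 9.57, 9.67 and 8.96 in dysplasia fibroblasts, and 10.64, 10.71 and 9.0 in SCC fibroblasts. Cornifelin (Cnfn), an envelope protein, had 8.88, 8.17 and 7.09 in normal fibroblasts, 9.97, 9.69 and 9.73 in dysplasia fibroblasts, and 10.61, 10.48 and 8.93 in SCC fibroblasts. For Cnfn the gap between the highest normal and the lowest SCC sample was small. Dsc2 had 8.99, 9.19 and 7.33 in normal fibroblasts, 9.65, 9.70 and 9.48 in dysplasia fibroblasts, and 11.16, 10.94 and 10.28 in SCC fibroblasts. In SCC, Tgm1 rose by 2.99 (SE 0.63, adjusted p = 0.0184, limma), Cnfn by 1.96 (SE 0.51, adjusted p = 0.0359) and Dsc2 by 2.29 (SE 0.45, adjusted p = 0.0148). Without SCC fibroblasts 1 or 2 each of these 3 calls was lost, with an adjusted p of up to 0.0788 for Tgm1, 0.132 for Cnfn and 0.0669 for Dsc2, and the count of called members fell to 1, Sprr1b. Cnfn lost its call without any of 6 single arrays.

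Ppl went the other way from most members. It had 12.11, 11.82 and 11.26 in normal fibroblasts, 11.22, 11.02 and 11.85 in dysplasia fibroblasts, and 10.69, 10.38 and 11 in SCC fibroblasts. In the lesions sample 3 was the highest, whereas for most members it was the lowest. The SCC change of -1.04 (SE 0.28, adjusted p = 0.0409, limma) was lost without any of 6 single arrays and under spike-in alignment, where it stood at -0.43.

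Ivl, which fell in epithelia, was near the bottom of the scale in fibroblasts, with 3.46, 3.24 and 3.57 in normal, 3.42, 3.89 and 3.80 in dysplasia, and 3.16, 3.94 and 3.32 in SCC. Anxa9 likewise stayed between 5.56 and 6.65 in all 9 fibroblast samples. Cldn7 was also low there, with means of 4.96, 5.18 and 5.46 in normal, dysplasia and SCC fibroblasts. The remaining members did not pass in SCC fibroblasts, and their changes ranged between 0.01 for Scel and 3.12 for Klk10 (SE 1.00, adjusted p = 0.0655).

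The third fibroblast samples stood apart at every stage. The members were lowest in the third sample for 30 of 33 genes among normal fibroblasts, 27 among dysplasia and 31 among SCC fibroblasts, while over all probe sets the third sample was lowest for 37.4%, 42.7% and 40.5%. Its median distance from the mean of the other samples was -1.99, -0.70 and -1.35. Its epithelial markers were also the lowest of each stage and its fibroblast markers the highest (12.93, 12.49 and 12.28, against at most 12.57, 11.60 and 11.79 in samples 1 and 2). Without the third sample of every stage, a setting chosen after the values were seen, 18 members were higher and 2 lower in dysplasia than in normal fibroblasts, and 21 higher and 2 lower in SCC than in normal fibroblasts, beside 26.5% and 42.3% of all probe sets. In that setting the change of Sprr1b was 3.54 in dysplasia and 4.18 in SCC, and that of Sprr2d was 4.30 and 5.67.

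With all samples, limma called 0 of 33 members in dysplasia over normal fibroblasts, beside 0.171% of all probe sets, and 10 members had an unadjusted p under 0.05, all of them higher in dysplasia. These were Sprr2d, Sprr1b, Sprr3, Lor, Klk10, Tgm1, Calml3, Cnfn, Sbsn and Dsc2, with changes between 1.11 and 4.10. Over all probe sets 5600 reached that value, and the methods' t-test called 0 members after adjustment. Between SCC and dysplasia fibroblasts 0 members were called, beside 1.85% of all probe sets. There 3 members, Ppl, Dsc2 and Cstb, and 5395 of all probe sets had an unadjusted p under 0.05, and the methods' t-test again called 0 members. Spike-in alignment also moved the SCC fibroblast results. It raised the median of all probe sets in SCC over normal fibroblasts to 0.56 and called 23 members higher and none lower. Of all 31042 probe sets it called 7374, with 97.9% of them higher, against 4733 and 51.3% as deposited. For SCC over dysplasia it called 7 members higher, beside 9161 of all probe sets. Of those 99.9% were higher, against 82.5% of 573 as deposited.

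Epithelia exceeded fibroblasts in nearly every member, and fewer members passed at the lesion stages. Higher in epithelia were 32 members in normal tissue, 24 in dysplasia and 21 in SCC, beside 35.7%, 27.4% and 18.1% of all probe sets, and none was lower. The median difference of the members was 3.67, 1.91 and 2.23, against 0.15, 0.10 and 0.06 for all probe sets. Cstb, which many cell types express, was the member that did not pass in normal tissue, at 12.87 in epithelia and 12.66 in fibroblasts. The difference was 6.15 for Klk10, 6.03 for Sprr2d, 5.91 for Sprr3, 5.63 for Tgm1 and 5.46 for Anxa9 in normal tissue. In SCC it was 4.21 for Anxa9 (SE 0.23, adjusted p = 8.79e-09, limma) and 2.76 for Sprr2d (SE 0.67, adjusted p = 0.00426), and Dsc2 and Dsg2 were nearly level, with 0.22 and 0.12. Desmosome genes stood 1.19 to 4.00 higher in normal epithelia and all 8 passed, against 3 of 8 at each lesion stage. A dimmer probe set of Dsp ran the other way, with -0.91 in dysplasia and -0.94 in SCC (adjusted p = 0.0138 and 0.0153). As the fibroblast samples carried keratinocyte transcripts, these differences are between the samples as labelled. Under spike-in alignment 85.2%, 92.0% and 71.4% of all calls were higher in epithelia, against 56.3%, 54.3% and 47.4% as deposited. It called 33, 33 and 28 members, beside 24566, 26396 and 11224 of 31042 probe sets called either way, against 19692, 15631 and 11882 as deposited. With quantile normalization 59.0% of all 12704 calls were higher in SCC epithelia, and 22 members passed.

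**Figure D5:**
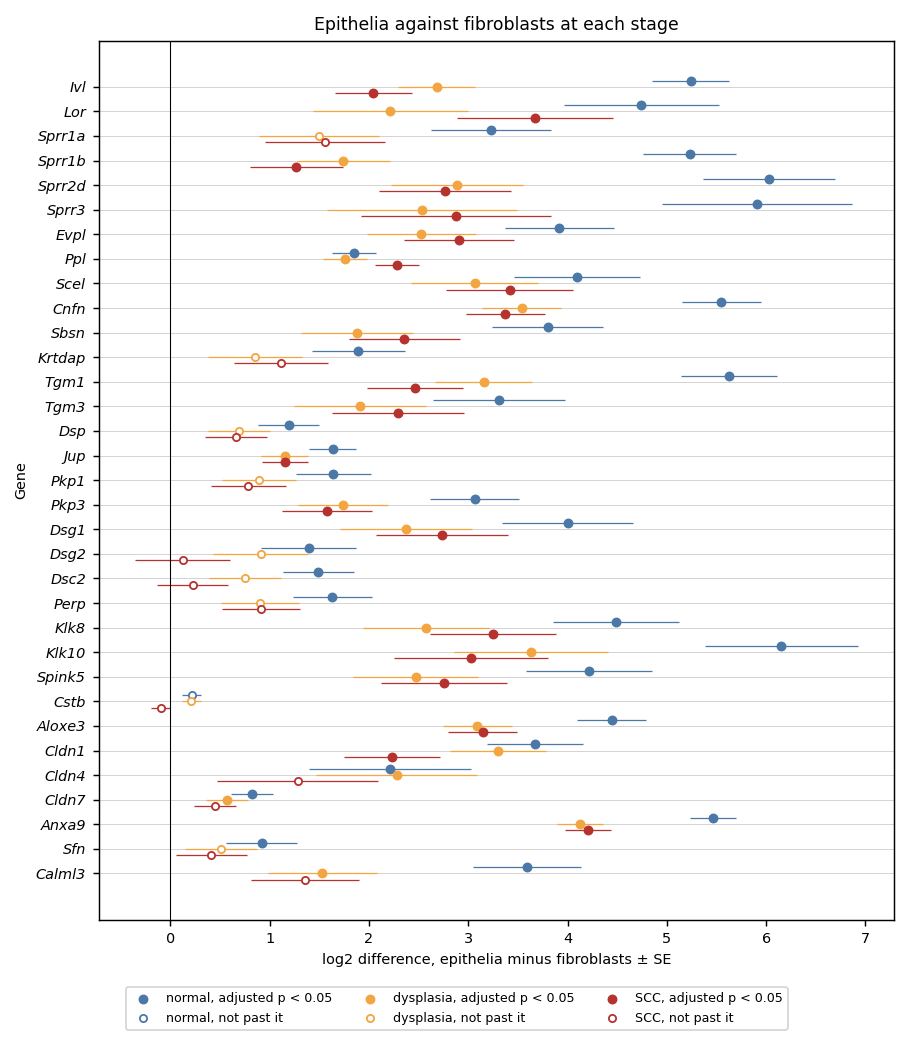
Log2 difference, epithelia minus fibroblasts, with its standard error for each member in normal, dysplasia and SCC. Filled points passed an adjusted p under 0.05. For most members the normal point lies furthest to the right, with Ppl and Cstb among those that stay close together.

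Whether a stage changed a gene differently in the 2 cell types was tested as the difference of the changes, epithelial minus fibroblast, in the fit of all arrays. For dysplasia over normal 3 members passed, all lower (Sprr1b, Ivl and Anxa9), beside 2.2% of all probe sets called lower. For SCC over normal 6 members passed, all lower (Sprr1b, Sprr2d, Ivl, Tgm1, Cnfn and Anxa9), beside 9.39%. The genes fell into 2 kinds by their own changes. Sprr1b, Sprr2d, Tgm1 and Cnfn changed by -0.22 to 1.37 in SCC epithelia and by 1.96 to 4.64 in SCC fibroblasts. Ivl and Anxa9 changed by -3.15 and -1.36 in SCC epithelia and by 0.05 and -0.11 in SCC fibroblasts, where Anxa9 turned to 0.50 under spike-in alignment. Ivl lay among the dimmest probe sets in fibroblasts, and the other kind lay at percentiles 97.2 (Sprr2d) to 99.7 (Cnfn) in normal epithelia. How far the ends of the scale narrow these differences was not tested.

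Other genes of the barrier, 76 of them measured and chosen by function, gave a wider view. In dysplasia epithelia 2 were higher and 19 lower than in normal epithelia, and in SCC epithelia 6 were higher and 35 lower, with a median of -0.30 and -0.34. Among all probe sets, 7.0% were higher and 7.54% lower in dysplasia and 12.6% and 17.3% in SCC, with a median of -0.06 and -0.09. In the list of tight and gap junction genes, 7 of 16 were lower in dysplasia and 10 of 16 in SCC, and none was higher. Among the genes that passed, the largest changes in dysplasia were those of Sts, a steroid sulfatase that acts on cholesterol sulfate (-2.65, SE 0.42), Gsdma, a gasdermin (-1.52), Lce1f, a late envelope protein (-1.34), and Pnpla1, an enzyme of barrier ceramides (-1.32). In SCC, again among the genes that passed, they were those of the kallikrein Klk6 (3.24, SE 0.56), Sts (-2.89), Lce1f (-2.52) and Cldn3, a claudin (-2.31, SE 0.23). Between SCC and dysplasia epithelia none of the 76 passed. In fibroblasts the connexins Gjb2 and Gjb6, which form gap junctions of keratinocytes, were the 2 that passed in dysplasia over normal, with 3.36 and 3.40. In SCC over normal 8 were higher and 1 lower of 76, near the share among all probe sets (7.82%) for the higher ones, and those with the largest changes were Gjb2 (4.17, SE 0.37), Gjb6 (4.12), the exonuclease Trex2 (2.77) and the protease inhibitor Slpi (2.53). Sts was the 1 gene that passed in SCC over dysplasia fibroblasts (1.70, SE 0.25), so it was lower in lesion epithelia and higher in SCC than in dysplasia fibroblasts.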

How the data were processed

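The authors deposited intensity values, 1 linear signal per probe set and sample. RMA and Affymetrix Expression Console stand in the submitters' processing notes. Their versions and the making of linear values were not given in the sources used here. Signals were taken to log2 as deposited, without a detection filter. Of 31099 probe sets, 57 controls were left out. Of the 31042 tested, 20826 name 1 gene, 436 several and 9780 none.

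Each cell type was fitted apart over its 9 arrays with limma 3.58.1 in R 4.3.3 (lmFit and eBayes), and comparisons of cell types used 1 fit of all 18 arrays. That fit treated epithelia and fibroblasts of a stage as independent samples. The Benjamini-Hochberg method adjusted p-values across all 31042 probe sets, and a call needed less than 0.05. Members called in a comparison of stages are given with every sample, and of the other barrier genes up to 4 called ones a comparison. The members and lists were chosen with earlier results of these data known. The methods' Student's t-test was run on the same values. The fits were tested on simulated data.

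Deviations of samples with the same number correlated at 0.321 to 0.592 for SCC and dysplasia fibroblasts, against -0.527 to 0.352 for different numbers. The best match there had the same number in 4 of 6 cases, and in 5 of 6 for each lesion against normal fibroblasts. In the other comparisons of stages, same-number correlations were not above 0.1 for every pair. The methods state no pairing of pools across stages, so these values do not establish one. Alternatives were a filter on dim probe sets, a floor on signals, quantile normalization, spike-in alignment, robust eBayes with trend, a replicate block, all probe sets of a gene and each array left out.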

Additional observations from a re-analysis of the deposited data

Results flagged for a closer look

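In 9 results the change of a gene with stage differed between epithelia and fibroblasts in a test of the difference itself (epithelial change minus fibroblast change, log2, limma over all arrays). In dysplasia over normal, Sprr1b differed by -3.49 (SE 0.66, adjusted p = 0.0104), Ivl by -2.56 (SE 0.55, adjusted p = 0.0193) and Anxa9 by -1.34 (SE 0.33, adjusted p = 0.0339). In SCC over normal, Sprr1b differed by -3.96 (SE 0.66, adjusted p = 0.00128), Sprr2d by -3.27 (SE 0.94, adjusted p = 0.0284) and Ivl by -3.20 (SE 0.55, adjusted p = 0.00155). In the same comparison Tgm1 differed by -3.16 (SE 0.69, adjusted p = 0.00686), Cnfn by -2.18 (SE 0.56, adjusted p = 0.0168) and Anxa9 by -1.26 (SE 0.33, adjusted p = 0.0177).

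The differences of Sprr1b at both stages, and those of Ivl and Tgm1 in SCC, held without each single array. The highest adjusted p with 1 array left out was 0.0506 for Ivl and 0.0764 for Anxa9 in dysplasia, and 0.0806 for Sprr2d, 0.0522 for Anxa9 and 0.051 for Cnfn in SCC. Under spike-in alignment the dysplasia differences of Ivl (adjusted p = 0.0627) and Anxa9 (adjusted p = 0.269) no longer passed. Anxa9 in dysplasia also lost its call with the replicate block. How far the ends of the scale narrow these differences was not tested. Ivl lay at the percentiles 2.60 to 4.12 of all probe sets in fibroblasts, which left little room for a fall of the size seen in epithelia. In normal epithelia Sprr1b, Sprr2d, Tgm1 and Cnfn lay 0.84, 2.46, 1.52 and 0.68 below the brightest probe set, less than their rise in SCC fibroblasts. Sprr1b, Sprr2d, Tgm1 and Cnfn are suprabasal keratinocyte genes, and the epithelial markers of the fibroblast samples also differed between the stages. Their part in these differences was not tested.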

How the results depend on the processing

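Of 652 values of called members under other settings, 532 stayed past the threshold, 120 lost it and 0 changed sign. Called members in dysplasia over normal epithelia numbered 8, against 4 with spike-in alignment, 2 in 1 fit of all arrays, 3 with the methods' t-test and 2 to 8 with 1 array left out. In SCC over normal epithelia it was 11, against 3 in 1 fit of all arrays. In dysplasia over normal fibroblasts it was 0, against 2 with spike-in alignment, 4 in 1 fit of all arrays, 20 without the third fibroblast sample of every stage and 0 to 2 with 1 array left out. In SCC over normal fibroblasts it was 6, against 23 with spike-in alignment, 11 in 1 fit of all arrays, 0 with the methods' t-test, 23 without the third samples and 1 to 12 with 1 array left out. In SCC over dysplasia fibroblasts it was 0, against 7 with spike-in alignment, 10 without the third samples and 0 to 1 with 1 array left out. The differences between the cell types numbered 3 in dysplasia and 6 in SCC, against 1 and 20 with spike-in alignment, 20 and 23 without the third samples, and 1 to 8 and 3 to 14 with 1 array left out. Without the third samples, 26.5% of all probe sets were called in dysplasia and 42.3% in SCC over normal fibroblasts. It was 16.2% in SCC over dysplasia fibroblasts, and 11.9% and 27.7% in the differences between the cell types. Spike-in alignment called 92, 7374 and 9161 of 31042 probe sets in the same fibroblast comparisons, and 285 and 7359 in the differences. Spike-in alignment gave 73.3% and 7.6% of all called differences as higher, against 46.8% and 43.1% as deposited. It moved the median of all probe sets to 0.71 in SCC over dysplasia fibroblasts, to 1.01, 1.22 and 0.37 in epithelia over fibroblasts at the 3 stages, and to 0.23 and -0.62 in the differences between the cell types. The cause of these shifts was not tested.

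With the sample number as a replicate block, 11 members passed in dysplasia and 16 in SCC over normal fibroblasts, beside 1449 and 7405 of 31042 probe sets. The differences between the cell types numbered 14 and 19, beside 2209 and 6363 of all probe sets. Samples of 1 number were not shown to be paired in any comparison. Between SCC and dysplasia fibroblasts, where their correlation was highest, the block changed no call. There 0 members passed, beside 846 of all probe sets. The other counts stayed within 1.5 times of the values given, also with a filter on dim probe sets, a floor, quantile normalization and robust eBayes. The 3 arrays a group limit the precision. How far the top of the scale narrows the changes of bright members in epithelia was not tested.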
